A study of Sus scrofa with 3 samples.

Results

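Genes of the extracellular matrix and of its receptors were examined in the pig liver: collagens, laminins, integrin subunits, lysyl oxidases, fibronectin, fibulins, fibrillins, SPARC proteins, matrix metalloproteinases (MMP), their tissue inhibitors (TIMP) and the ADAMTS family. Members were taken by gene symbol alone, so no measured value entered the choice, and 110 of the 25322 gene IDs in the count tables carried such a symbol. Other genes of these families had no matched ID, among them COL1A1, COL4A1, COL18A1, LAMA5 and TIMP3. All sums and counts below leave them out. At least 1 count was seen for 105 of them, and 80 were expressed, which here means at least 1 CPM (counts per gene, scaled to library size) in at least 1 library. These 80 comprised 38 structural, 16 adhesion and 26 remodelling genes. Liver RNA came from 3 male pigs at postnatal day 90, with 1 RNA-seq library each from an Enshi black pig (a Chinese local breed), a Large White pig (a European commercial breed) and a Chinese wild boar. The labels name no treatment, genotype or pooling. With 1 library per breed, breed, animal and library cannot be told apart, no test across animals exists, and every statement below compares these libraries.

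The matrix is a scaffold outside the cells. Collagen chains fold in threes into helices, lysyl oxidases cross-link them, laminins and type IV collagen build basement membranes, and integrins on the cell surface bind these proteins. MMP and ADAMTS enzymes cut matrix proteins, and TIMPs block MMPs. In the liver most collagen is made by stellate cells and portal fibroblasts, whereas plasma fibronectin is a secreted product of hepatocytes, and the healthy sinusoid lacks a continuous basement membrane.

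Library totals ranged from 19982627 to 20654571 gene counts. At this depth 1 count was worth 0.0464 CPM in Enshi black, 0.0510 CPM in Large White and 0.0507 CPM in Chinese wild boar. Reads that fell on no annotated gene made up 18.9% to 21.96% of the tallied reads, the highest share being in Large White. Of the hepatocyte markers, albumin (ALB) reached 25234 to 66555 CPM, as the labelled tissue would have it, whereas APOA1 had at most 2 counts in a library. Folds are given with a 95% exact binomial interval in parentheses, which covers counting error and nothing else. A gene is called different between 2 libraries when the end of that interval nearest to 1 lies at least 2-fold away.

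The clearest pattern among these genes was the collagens, which were most abundant in the Enshi black library and least abundant in that of Large White. Summed over the 31 matched collagen IDs, which lack COL1A1, COL4A1 and COL18A1, the level was 1823 CPM in Enshi black, 750.0 CPM in Large White and 1142 CPM in Chinese wild boar. COL3A1 alone gave a large part of this sum, but the other 30 collagen IDs followed the same order, with 985 CPM, 518 CPM and 757 CPM. Of the 21 expressed collagens, 15 had their highest value in Enshi black and 14 had their lowest in Large White. Over all 80 expressed members, 41 were highest in Enshi black, 25 in the Large White and 14 in the Chinese wild boar, against 37.2%, 32.8% and 30.0% of the 13224 expressed genes. The lowest value lay in Enshi black for 19 members, in Large White for 35 and in Chinese wild boar for 26, against 36.4%, 34.2% and 29.4% of all expressed genes.

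**Figure D1:**
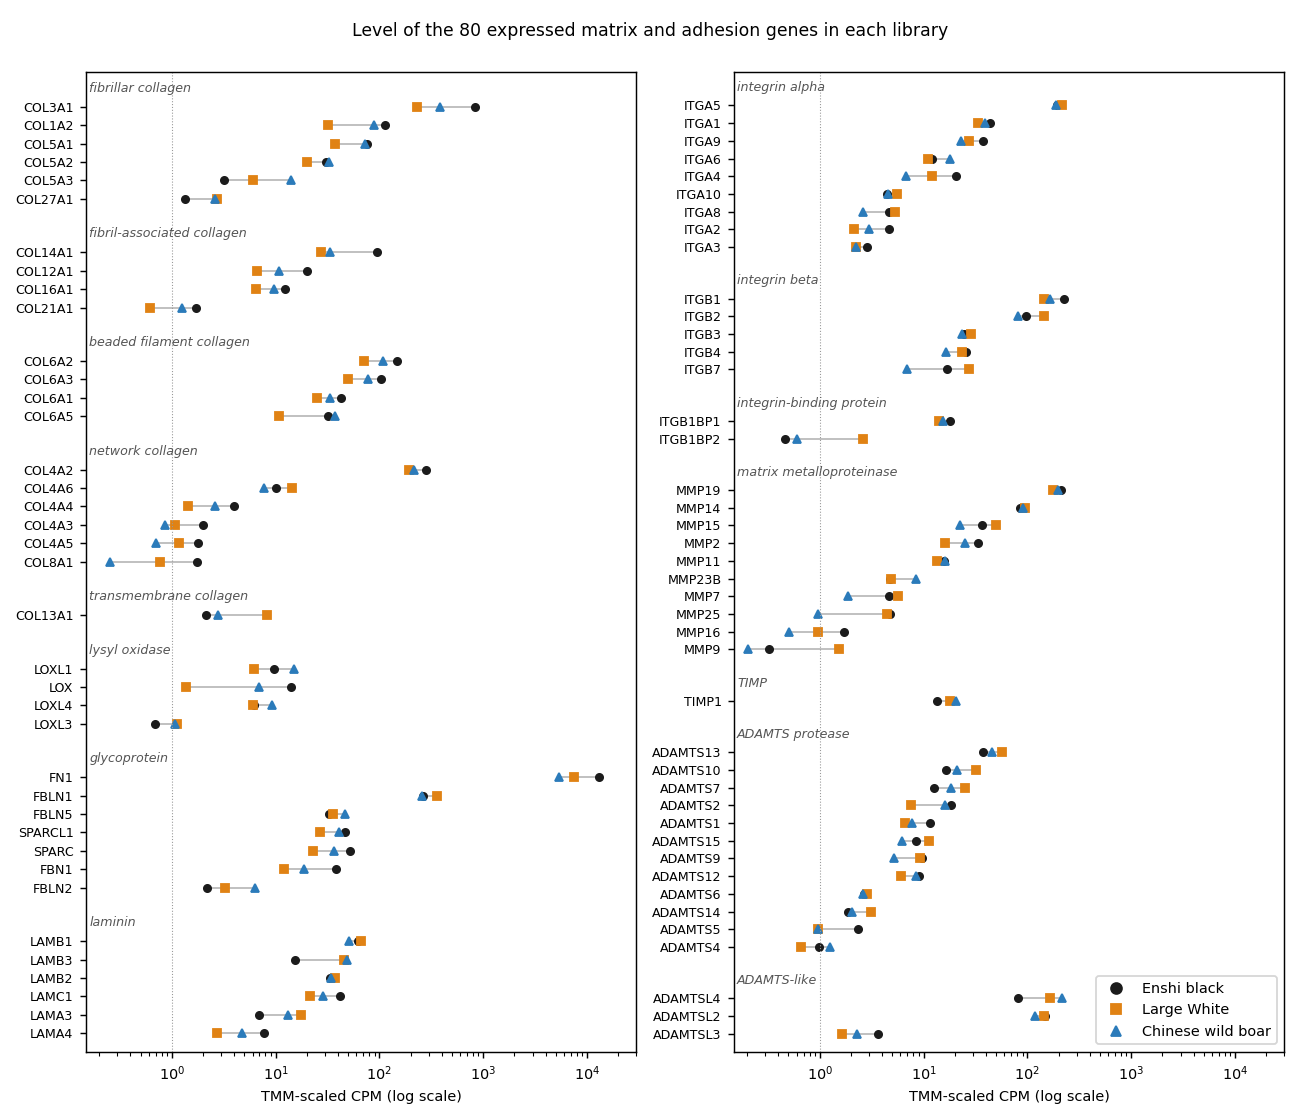
Level of each of the 80 expressed members in the 3 libraries, as TMM-scaled CPM on a log axis, ordered by role and mean level. A grey line joins the lowest and highest library, and the dotted line marks 1 CPM. In 15 of 21 collagens the Enshi black point lies farthest right.

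Against Large White, Enshi black had 9 members called higher (11.25% of 80) and 5 called lower (6.25%), where 4.73% of all expressed genes were called higher and 8.36% lower. All 9 higher members were structural genes: COL3A1, COL1A2, COL14A1, COL12A1, COL6A5, LOX, SPARC, FBN1 and LAMA4. The 5 lower members were COL13A1, LAMA3, LAMB3, ITGB1BP2 and MMP9, of which the first 3 are structural genes too. Of the 38 expressed structural genes, 9 were thus called higher and 3 lower. For Chinese wild boar set against Large White, 3 members were called higher (COL1A2, COL6A5 and LOX) and 6 lower (COL13A1, ITGB7, ITGB1BP2, MMP7, MMP9 and MMP25). Those shares, 3.75% and 7.5%, stood beside 2.99% and 3.71% of all expressed genes. For Enshi black against Chinese wild boar, 7 members were called higher and 4 lower, or 8.75% and 5%, beside 3.98% and 7.17% of all expressed genes. The higher members were FN1, COL3A1, COL14A1, COL8A1, ITGA4, ITGB7 and MMP25, and the lower ones COL5A3, FBLN2, LAMB3 and ADAMTSL4. These 3 comparisons share libraries and are not independent, and 57 expressed members were called in none of them.

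By function, the median log2 fold between Enshi black and Large White was 0.79 over structural, 0.12 over adhesion and 0.003 over remodelling genes, beside 0.01 over all expressed genes. For Chinese wild boar set against Large White the medians were 0.57, -0.26 and -0.10, beside 0.01. Structural genes thus had the highest median in both comparisons, which share the Large White library. Between Enshi black and Chinese wild boar the class medians lay closer together, at 0.36, 0.31 and 0.14 in the same order, beside 0.003. All these intervals leave out variation between animals: if a coefficient of variation of 0.4 between animals is assumed, LOX in Enshi black against Large White is the 1 member call that is kept in any pair of libraries.

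**Figure D2:**
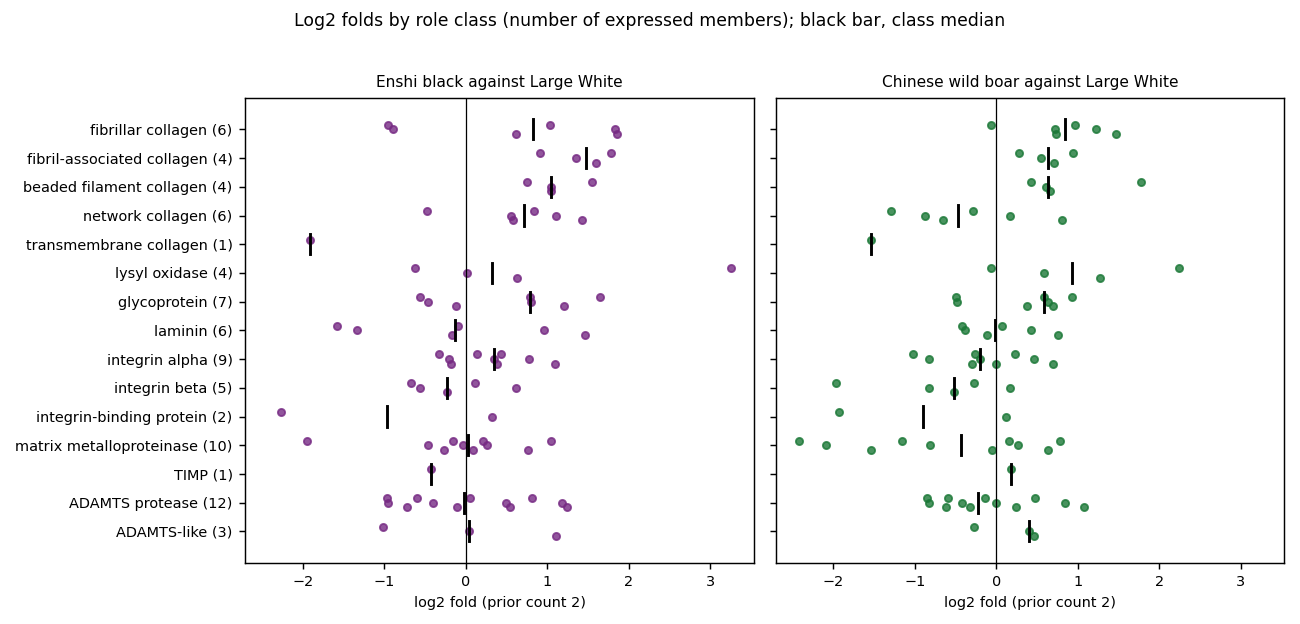
Log2 fold (prior count 2) of each expressed member against Large White, by role class, for Enshi black (left) and Chinese wild boar (right). Points are genes and black bars class medians. Fibrillar, fibril-associated and beaded filament collagens have medians above 0 in both panels, and network collagens at 0.71 on the left and -0.47 on the right.

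The fibrillar collagens form the tensile fibrils of connective tissue. COL3A1 (ENSSSCG00000016034), the single chain of type III collagen, had 838 CPM in Enshi black, 232 CPM in Large White and 384 CPM in Chinese wild boar. It was 3.62-fold (3.50 to 3.74) higher in Enshi black than Large White and 2.18-fold (2.12 to 2.24) higher than in Chinese wild boar. COL1A2 (ENSSSCG00000015326), the alpha-2 chain of type I collagen, had 114 CPM, 32.1 CPM and 89.0 CPM in the same order. Here Large White stood low against both others, with 3.56-fold (3.26 to 3.89) more in Enshi black and 2.77-fold (2.53 to 3.04) more in Chinese wild boar. Its partner chain COL1A1 had no matched ID and is not analysed here.

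Type V collagen nucleates fibrils of types I and III. COL5A1 had 76.8 CPM in Enshi black, 37.7 CPM in Large White and 73.4 CPM in Chinese wild boar, and COL5A2 had 30.6 CPM, 19.9 CPM and 32.8 CPM. Neither chain was called in any comparison, though both were lowest in Large White. The minor chain COL5A3 ran differently, at 3.20 CPM, 6.02 CPM and 14.1 CPM, and was 4.42-fold (3.38 to 5.84) lower in Enshi black than in Chinese wild boar. COL27A1 had 1.34 CPM in Enshi black, 2.70 CPM in Large White and 2.58 CPM in Chinese wild boar and was not called. COL2A1, the cartilage collagen, had no count, and COL11A1 and COL11A2 had at most 3 counts in a library.

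Fibril-associated collagens sit on the surface of those fibrils. All 4 expressed members were highest in Enshi black and lowest in Large White. COL14A1 had 94.9 CPM in Enshi black, 27.5 CPM in Large White and 33.2 CPM in Chinese wild boar, so that Enshi black stood apart by 3.46-fold (3.14 to 3.81) and 2.86-fold (2.61 to 3.12). COL12A1 had 20.1 CPM, 6.58 CPM and 10.8 CPM and was 3.06-fold (2.51 to 3.75) higher in Enshi black than Large White. COL16A1 and COL21A1 had the same order at lower levels, from 12.3 CPM to 6.53 CPM and from 1.72 CPM to 0.612 CPM, and were not called.

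Type VI collagen forms beaded filaments around cells from the chains COL6A1, COL6A2 and COL6A3, with COL6A5 as an alternative chain. COL6A2 had 147 CPM in Enshi black, 71.5 CPM in Large White and 109 CPM in Chinese wild boar. COL6A3 had 103 CPM, 49.7 CPM and 78.5 CPM, and COL6A1 had 42.4 CPM, 25.2 CPM and 33.7 CPM. The 3 chains thus shared their order but were not called, with COL6A2 at 2.06-fold (1.93 to 2.19) in Enshi black against Large White. COL6A5 had 31.8 CPM, 10.8 CPM and 37.2 CPM, and was 2.95-fold (2.53 to 3.46) higher in Enshi black and 3.46-fold (2.96 to 4.05) higher in Chinese wild boar than in Large White.

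Network collagens were less uniform. COL4A2, a chain of the common type IV collagen of basement membranes, had 284 CPM in Enshi black, 193 CPM in Large White and 216 CPM in Chinese wild boar, with a largest difference of 1.47-fold (1.41 to 1.53). COL4A6 was highest in Large White, with 280 counts against 220 counts in Enshi black and 153 counts in Chinese wild boar. COL4A3, COL4A4 and COL4A5 lay between 0.709 CPM and 3.99 CPM, each highest in Enshi black. COL8A1, a short-chain collagen of vessel walls, had 38 counts in Enshi black, 15 counts in Large White and 5 counts in Chinese wild boar, and was 6.96-fold (2.73 to 22.6) higher in Enshi black than in Chinese wild boar. It reached 1 CPM in Enshi black alone, so it entered the expressed collagens only through the library where it was highest. The transmembrane collagen COL13A1 went the other way from most collagens. It had 8.32 CPM in Large White, 2.13 CPM in Enshi black and 2.79 CPM in Chinese wild boar, 3.90-fold (2.80 to 5.53) and 2.99-fold (2.19 to 4.13) below Large White. The second of these calls was lost when folds were centred on genes of similar span.

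Lysyl oxidases oxidise lysines of collagen and elastin, from which the cross-links form. LOX (ENSSSCG00000014232) had 301 counts in Enshi black, 27 counts in Large White and 136 counts in Chinese wild boar, or 13.96 CPM, 1.38 CPM and 6.89 CPM. The fold was 10.1 (6.83 to 15.6) for Enshi black and 5.001 (3.29 to 7.86) for Chinese wild boar set against Large White, the largest called increases among the 80 members in either comparison. LOXL1 had 9.64 CPM in Enshi black, 6.22 CPM in Large White and 15.1 CPM in Chinese wild boar and was not called, at 2.43-fold (1.96 to 3.03) for Chinese wild boar set against Large White. LOXL4, with 6.12 CPM to 9.27 CPM, and LOXL3, with 0.696 CPM to 1.12 CPM, were not called either. In the RefSeq annotation LOX overlaps another protein-coding gene, LOC100525452, so its counts may include or lack reads of that gene.

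**Figure D3:**
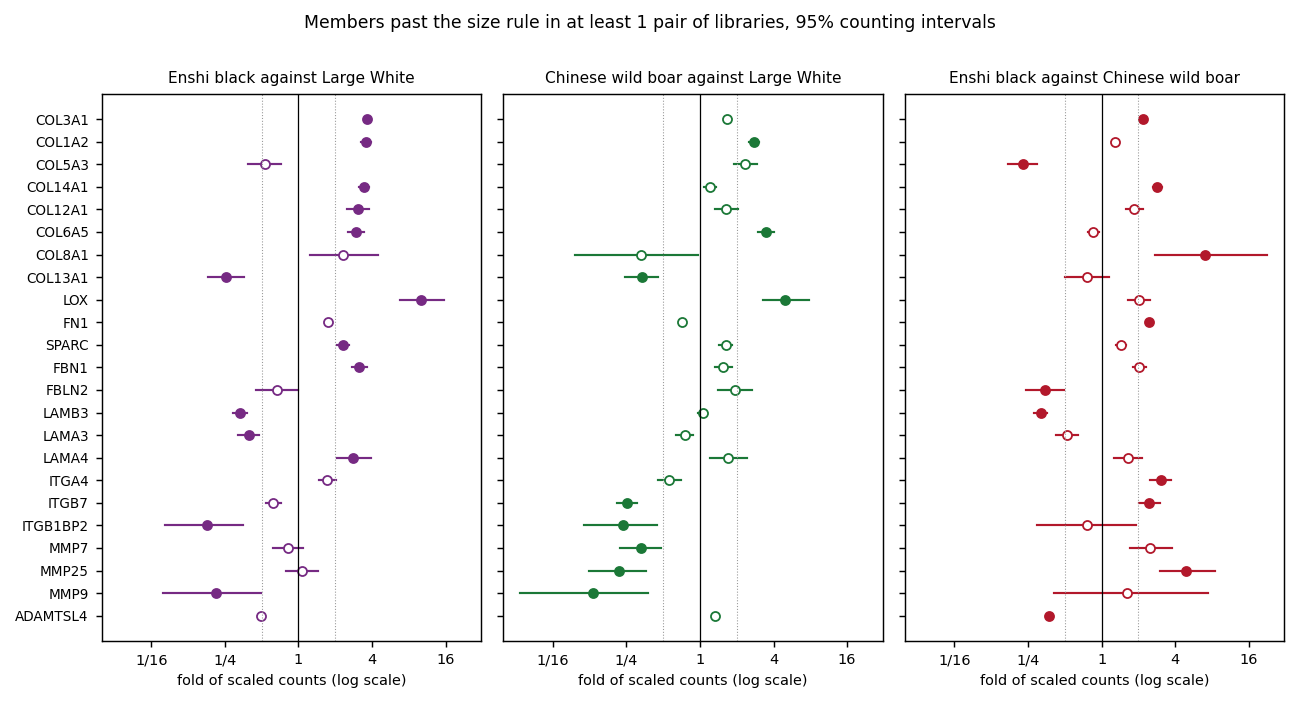
Fold of scaled counts for the 23 members called in at least 1 pair of libraries, on a log axis, with 95% exact intervals for counting error. Filled circles are called, open circles are not, and dotted lines mark 2-fold. LOX lies farthest right of the filled points in the first and second panels, and COL13A1 and MMP9 lie left of 1 in both.

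Among the glycoproteins, fibronectin (FN1, ENSSSCG00000016174) far exceeded every other member in counts and took 1.37% (1.37 to 1.38, exact binomial) of all gene counts in Enshi black, 0.745% (0.741 to 0.748) in Large White and 0.525% (0.522 to 0.528) in Chinese wild boar. At 13166 CPM, 7592 CPM and 5376 CPM it was 2.45-fold (2.43 to 2.47) higher in Enshi black than in Chinese wild boar and 1.73-fold (1.72 to 1.75) higher than in Large White, which was not called. Unlike the collagens, FN1 was lower in Chinese wild boar than in Large White, by 1.41-fold (1.40 to 1.42). Albumin (ALB), another hepatocyte product, followed a different order, with 66555 CPM in Enshi black, 25234 CPM in Large White and 53772 CPM in Chinese wild boar. ALB is 1 of 9 expressed hepatocyte markers, which diverged. Against Large White, 2 of them were called higher and 1 lower in Enshi black (median log2 fold 0.17). In Chinese wild boar 1 was called higher and 0 lower (median 0.0008).

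FBN1, the fibrillin of microfibrils, had 38.0 CPM in Enshi black, 12.04 CPM in Large White and 18.7 CPM in Chinese wild boar and was 3.158-fold (2.73 to 3.67) higher in Enshi black than Large White. SPARC, a collagen-binding secreted protein, had 52.6 CPM, 22.8 CPM and 36.8 CPM and was 2.31-fold (2.07 to 2.59) higher in the same comparison. Both thus shared the order of the main collagens. Its relative SPARCL1 had that order too, with 46.7 CPM, 27.04 CPM and 40.6 CPM, but was not called. The fibulins did not: FBLN1 was highest in Large White, at 361 CPM against 262 CPM in Enshi black and 258 CPM in Chinese wild boar. FBLN5, which takes part in elastic fibre assembly, had 33.0 CPM, 35.8 CPM and 46.6 CPM in Enshi black, Large White and Chinese wild boar. FBLN2 had 2.18 CPM, 3.27 CPM and 6.28 CPM and was 2.88-fold (2.04 to 4.12) lower in Enshi black than in Chinese wild boar, a call that was lost with total counts.

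Laminins are trimers of an alpha, a beta and a gamma chain, and their chains moved in opposite directions. LAMB3, the beta chain of an epithelial laminin that also holds LAMA3, had 15.3 CPM in Enshi black, 46.0 CPM in Large White and 48.3 CPM in Chinese wild boar. Enshi black was low by 2.999-fold (2.64 to 3.41) and 3.15-fold (2.78 to 3.58). LAMA3, the alpha chain of the same trimer, had 6.96 CPM, 17.8 CPM and 13.3 CPM and was 2.55-fold (2.1 to 3.11) lower in Enshi black than Large White, a call lost with total counts. Summed markers of cholangiocytes, an epithelial cell type of the liver, were 242 CPM, 256 CPM and 274 CPM (7 genes, of which 1 had no count in Enshi black), and their part in the LAMA3 and LAMB3 values was not tested.

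The mesenchymal and endothelial laminin chain LAMA4 was instead highest in Enshi black, with 7.74 CPM against 2.76 CPM in Large White and 4.71 CPM in Chinese wild boar. It was 2.81-fold (2.06 to 3.89) higher in Enshi black than Large White, a call lost when folds were centred on genes of similar span. LAMC1, the common gamma chain, had 41.5 CPM, 21.3 CPM and 28.6 CPM and was not called. LAMB1 had 62.2 CPM, 66.7 CPM and 51.2 CPM, and LAMB2 had 33.2 CPM, 37.2 CPM and 34.3 CPM. For LAMB2 and LAMB1 all pairwise intervals lay inside 1.5-fold. This held for 11 expressed members in all, 13.75% of 80, beside 17.2% of all expressed genes.

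Integrins pair an alpha with a beta subunit. ITGB1, the common beta subunit of collagen, laminin and fibronectin receptors, had 225 CPM in Enshi black, 146 CPM in Large White and 164 CPM in Chinese wild boar. Its fold of 1.54 (1.47 to 1.61) in Enshi black against Large White was not called. ITGA5, which with ITGB1 forms the fibronectin receptor, had 191 CPM, 218 CPM and 190 CPM, a narrow range beside that of FN1. ITGA1, an alpha subunit of collagen receptors, had 43.8 CPM, 33.5 CPM and 39.3 CPM, and ITGA9 had 37.4 CPM, 27.6 CPM and 23.1 CPM. ITGA2, another collagen receptor subunit, had 4.68 CPM, 2.14 CPM and 2.99 CPM. Of the 14 expressed integrin subunits, 0 were called between Enshi black and Large White, where 4.73% of all expressed genes were called higher and 8.36% lower, so that few calls were to be had in a list of this size.

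The integrin subunits that were called, ITGA4 and ITGB7, are known from leukocytes. ITGB7, a beta subunit of lymphocyte homing receptors, had 16.97 CPM in Enshi black, 27.1 CPM in Large White and 6.89 CPM in Chinese wild boar. Chinese wild boar was low against both, by 3.94-fold (3.26 to 4.79) against Large White and 2.46-fold (2.02 to 3.02) against Enshi black. ITGA4, which pairs with ITGB7 or ITGB1, had 20.7 CPM, 12.1 CPM and 6.79 CPM and was 3.05-fold (2.51 to 3.73) higher in Enshi black than in Chinese wild boar. ITGB2, the shared beta subunit of leukocyte integrins, had 98.0 CPM, 144 CPM and 81.4 CPM and was not called. Summed markers of T and NK cells were likewise lowest in Chinese wild boar, at 156 CPM in Enshi black, 159 CPM in Large White and 64.8 CPM in Chinese wild boar. Between Enshi black and Large White the marker sums were close, whereas ITGA4 was higher and ITGB7 lower in Enshi black. None of those 9 markers was at 0, and 6 of 9 were called lower in Chinese wild boar than in Large White, beside 3.71% of all expressed genes. B cell markers summed to 13.4 CPM, 11.4 CPM and 15.3 CPM over 5 genes, but single markers diverged. Of the 4 expressed, 3 were called higher and 1 lower in Enshi black than in either other library, among them CD79B and MS4A1 higher and POU2AF1 lower. Of all expressed genes, 4.73% were called higher and 8.36% lower against Large White, and 3.98% and 7.17% against Chinese wild boar. The part of these cells in the integrin values was not tested, and fewer cells of a type and less RNA per cell cannot be told apart in bulk tissue.

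The remaining integrins were not called. ITGB3 had 24.3 CPM, 28.6 CPM and 23.7 CPM in Enshi black, Large White and Chinese wild boar, and ITGB4, a laminin receptor subunit of epithelia, had 25.6 CPM, 23.7 CPM and 16.5 CPM. ITGA6, its alpha partner, was highest in Chinese wild boar, at 18.03 CPM against 12.2 CPM in Enshi black and 11.1 CPM in Large White. ITGA3, ITGA8 and ITGA10 lay between 2.23 CPM and 5.61 CPM. The symbol rule also took 2 integrin-binding proteins. ITGB1BP1 had 14.2 CPM to 17.8 CPM, while ITGB1BP2, known as melusin of striated muscle, had 10 counts in Enshi black, 51 counts in Large White and 12 counts in Chinese wild boar. It was 5.61-fold (2.82 to 12.4) lower in Enshi black and 4.28-fold (2.25 to 8.82) lower in Chinese wild boar than in Large White. ITGB1BP2 reached 1 CPM in Large White alone, and so counts as expressed only through that library. Of 7 listed markers of skeletal muscle, only ACTA1 had a matched ID, and it stayed at or below 0.232 CPM.

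Among the metalloproteinases, the abundant members hardly differed. MMP19 had 213 CPM in Enshi black, 178 CPM in Large White and 198 CPM in Chinese wild boar, and MMP14, a membrane-bound collagenase, had 85.3 CPM, 95 CPM and 91.6 CPM. All pairwise intervals of both lay inside 1.5-fold, as did those of MMP11, with 13.5 CPM to 16.3 CPM. MMP2, a gelatinase of mesenchymal cells, shared the order of the main collagens, with 33.3 CPM, 16.1 CPM and 25.1 CPM, but its 2.07-fold (1.81 to 2.38) difference between Enshi black and Large White was not called. MMP15 was low in Chinese wild boar, at 22.4 CPM against 36.4 CPM in Enshi black and 50.3 CPM in Large White. It missed the 2-fold limit narrowly and was called lower than in Large White with DESeq2 size factors and with total counts.

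The less abundant MMP7, MMP25 and MMP9 were all lower in Chinese wild boar than in Large White. MMP7, matrilysin of epithelia, had 101 counts in Enshi black, 111 counts in Large White and 37 counts in Chinese wild boar and was 3.02-fold (2.07 to 4.51) lower. MMP25, a leukocyte metalloproteinase, had 102, 87 and 19 counts and was 4.61-fold (2.78 to 8.03) lower than in Large White and 4.91-fold (2.99 to 8.5) lower than in Enshi black. MMP9, a gelatinase stored in neutrophils, had 7, 30 and 4 counts, 7.55-fold (2.66 to 29.5) lower in Chinese wild boar and 4.72-fold (2.03 to 12.7) lower in Enshi black. The latter call was lost with total counts and when centred on genes of similar span. MMP9 reached 1 CPM in Large White alone, so it entered the expressed members only through the library where it was highest. The neutrophil marker CSF3R had 6.03 CPM in Enshi black, 33.8 CPM in Large White and 4.51 CPM in Chinese wild boar, the same order as MMP9 but not as MMP25. The other matched neutrophil marker, S100A8, stayed between 0.278 CPM and 0.760 CPM, and the part of neutrophils in these values was not tested.

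MMP23B had 4.73 CPM in Enshi black, 4.85 CPM in Large White and 8.41 CPM in Chinese wild boar, and MMP16 had 37, 19 and 10 counts, and neither was called. TIMP1, an inhibitor of MMPs and the 1 TIMP with a matched ID, had 13.5 CPM, 18.1 CPM and 20.5 CPM. It was thus lowest in Enshi black, where most collagens were highest, but the 1.34-fold (1.15 to 1.57) difference from Large White was not called. The interstitial collagenases were close to absent: MMP1 had 9 counts in Enshi black, 0 counts in Large White and 1 counts in Chinese wild boar, and MMP13 had at most 1. MMP8 had 4 counts in Large White and 0 elsewhere. A count of 0 allows up to 0.139 CPM in Enshi black and 0.153 CPM in Large White, at a floor of 3 counts.

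Of the 12 expressed ADAMTS proteases, 0 were called in any comparison, a small list beside the 4.73% of all expressed genes called higher and 8.36% lower between Enshi black and Large White. ADAMTS13, which cleaves von Willebrand factor and is made by stellate cells, had 37.6 CPM in Enshi black, 57.2 CPM in Large White and 45.7 CPM in Chinese wild boar. ADAMTS10 and ADAMTS7 had the same order, with 16.6 CPM, 32.3 CPM and 20.9 CPM and with 12.7 CPM, 24.8 CPM and 18.5 CPM. ADAMTS2, which removes the N-terminal propeptide of fibrillar procollagens, had the opposite order, with 18.2 CPM, 7.65 CPM and 16.2 CPM. At 2.38-fold (1.97 to 2.89) in Enshi black against Large White it lay just short of a call and was called with total counts. ADAMTS1 had 11.6 CPM in Enshi black, 6.58 CPM in Large White and 7.80 CPM in Chinese wild boar, and the aggrecanases ADAMTS5 and ADAMTS4 lay between 0.663 CPM and 2.32 CPM.

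The ADAMTS-like proteins lack the protease domain. ADAMTSL4, a fibrillin-binding member, had 81.0 CPM in Enshi black, 164 CPM in Large White and 218 CPM in Chinese wild boar and was 2.69-fold (2.54 to 2.85) lower in Enshi black than in Chinese wild boar. This order is the reverse of that of FN1. ADAMTSL2 was nearly flat at 119 CPM to 148 CPM, and ADAMTSL3 had 3.62 CPM, 1.63 CPM and 2.28 CPM.

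A ratio of 2 genes within a library does not depend on the scaling between libraries, so it shows whether partners kept their proportion. Ratios of different gene pairs are not comparable with each other, since counts grow with transcript length. COL6A3 to COL6A2 was 0.698 (0.661 to 0.737) in Enshi black, 0.696 (0.641 to 0.756) in Large White and 0.721 (0.675 to 0.770) in Chinese wild boar, so these chains kept their proportion within counting error. COL6A1 to COL6A2, at 0.288 (0.268 to 0.310), 0.352 (0.317 to 0.390) and 0.310 (0.283 to 0.338), spread more, with Enshi black and Large White not overlapping.

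COL3A1 to COL1A2 was 7.33 (7.03 to 7.65) in Enshi black, 7.22 (6.64 to 7.86) in Large White and 4.32 (4.10 to 4.55) in Chinese wild boar. Enshi black and Large White therefore differed in the level of both collagens but not detectably in their proportion, while Chinese wild boar had relatively less COL3A1. COL3A1 and COL5A2, which neighbour each other on chromosome 15 in RefSeq, had a ratio of 27.4 (25.4 to 29.7) in Enshi black against 11.6 (10.5 to 12.9) and 11.7 (10.8 to 12.7) in Large White and Chinese wild boar. COL5A3 to COL5A1 was 0.0416 (0.0322 to 0.0530) in Enshi black, below 0.1599 (0.131 to 0.194) in Large White and 0.193 (0.169 to 0.219) in Chinese wild boar.

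**Figure D4:**
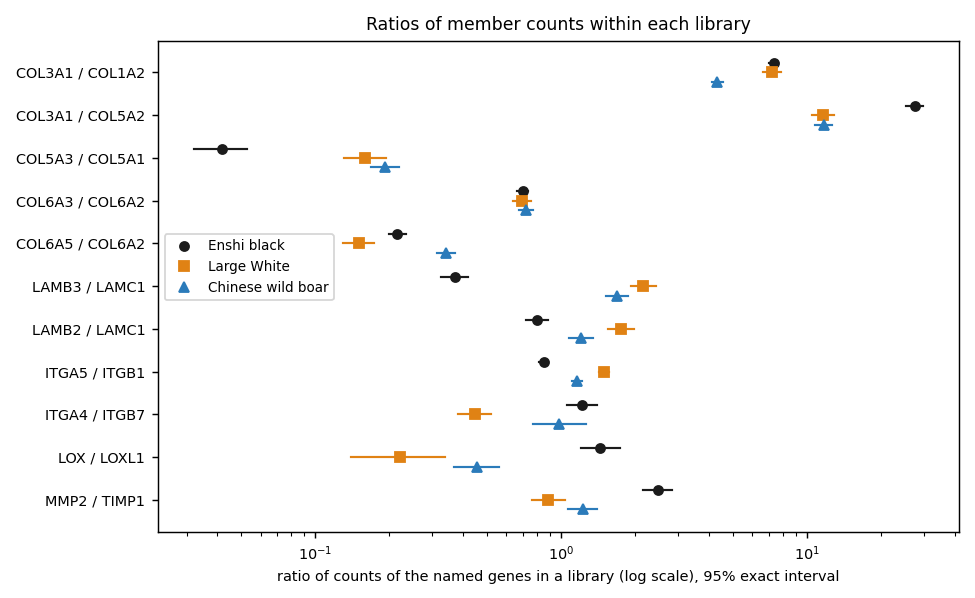
Ratio of the counts of 2 members within each library, on a log axis, with 95% exact intervals for counting error; values compare libraries within a row, not rows with each other. The COL6A3 to COL6A2 points coincide, whereas the LAMB3 to LAMC1 ratio is 0.369 in Enshi black against 2.16 in Large White.

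Among adhesion partners, LAMB3 to LAMC1 was 0.369 (0.325 to 0.420) in Enshi black, 2.16 (1.92 to 2.44) in Large White and 1.69 (1.52 to 1.88) in Chinese wild boar. LAMB2 to LAMC1 was 0.798 (0.722 to 0.881), 1.75 (1.55 to 1.98) and 1.202 (1.07 to 1.35), with no overlap between libraries. ITGA5 to ITGB1 was likewise lowest in Enshi black, at 0.851 (0.816 to 0.887), against 1.49 (1.42 to 1.56) and 1.16 (1.105 to 1.21). ITGA4 to ITGB7 was 0.445 (0.381 to 0.520) in Large White but 1.22 (1.06 to 1.41) and 0.985 (0.770 to 1.26) in Enshi black and Chinese wild boar. The ratio of LOX to LOXL1 was 1.45 (1.21 to 1.74) in Enshi black, 0.221 (0.140 to 0.338) in Large White and 0.455 (0.369 to 0.559) in Chinese wild boar. MMP2 to TIMP1, a protease to inhibitor ratio, was 2.47 (2.15 to 2.84) in Enshi black, 0.887 (0.760 to 1.04) in Large White and 1.23 (1.07 to 1.40) in Chinese wild boar.

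Other matrix genes outside the symbol rule were read from lists. Against Large White, 4.73% of all expressed genes were called higher and 8.36% lower in Enshi black, and 2.99% and 3.71% in Chinese wild boar. Of 17 expressed basement membrane and proteoglycan genes, 3 were called higher in Enshi black than Large White and none lower (median log2 fold 0.14). They were the small collagen-binding proteoglycans DCN at 3.57-fold, FMOD at 3.19-fold and PRELP at 2.76-fold. For Chinese wild boar set against Large White, PRELP was called higher at 2.40-fold and VCAN lower, at 1.67 CPM against 7.09 CPM. Of 23 elastic fibre and glycoprotein genes, 3 were called higher in Enshi black than Large White (median 0.21), namely TNC at 5.79-fold, ECM2 at 3.13-fold and LTBP1 at 2.88-fold. In Chinese wild boar TNC, MFAP2 and ELN were called higher than in Large White and EMILIN2 lower (median 0.05). Elastin (ELN), a substrate of LOX, had 5.24 CPM in Enshi black, 3.37 CPM in Large White and 10.7 CPM in Chinese wild boar.

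Of 14 expressed genes that fold and process collagen, 0 were called in either direction against Large White, with medians of 0.07 for Enshi black and 0.11 for Chinese wild boar. For Enshi black 4.73% of all expressed genes were called higher and 8.36% lower, and for Chinese wild boar 2.99% and 3.71%. Few calls were thus to be had in lists of this size. Of 26 listed folding genes 17 had a matched ID, and SERPINH1, P4HB, PPIB, CRTAP and COLGALT1 had none. P4HA1, a prolyl hydroxylase subunit, had 49.99 CPM in Enshi black, 23.7 CPM in Large White and 20.3 CPM in Chinese wild boar and was called higher in Enshi black than in Chinese wild boar. Its 2.11-fold (1.89 to 2.36) difference between Enshi black and Large White was not called. PCOLCE, the procollagen C-proteinase enhancer, had 39.7 CPM, 85.6 CPM and 57.0 CPM, an order opposite to that of COL3A1, and its 2.16-fold (1.99 to 2.34) lower level in Enshi black than Large White just missed the limit. Of 18 genes of TGF-beta signalling, none was called in Enshi black against Large White (median 0.19), and INHBE was called higher in Chinese wild boar than in Large White (median -0.04). Of 18 other proteases and inhibitors, 1 was called higher and 0 lower in Enshi black against Large White (median 0.49), and 1 higher and 1 lower in Chinese wild boar (median -0.21). The higher gene was CTSL, a lysosomal protease, in both. Of 17 integrin adaptors, PARVB and TLN2 were called lower in Enshi black than Large White and FERMT3, of blood cells, lower in Chinese wild boar (medians -0.08 and -0.17). Of 7 other integrins and collagen receptors, ITGAL, of lymphocytes, was called lower in Chinese wild boar than in Large White (median -0.32), and none in Enshi black (median -0.06).

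Markers of the cells that make collagen were set beside the collagens. The 15 stellate cell markers summed to 626 CPM in Enshi black, 519 CPM in Large White and 507 CPM in Chinese wild boar, and none was at 0. In Enshi black against Large White, LRAT, PDGFRA and RELN were called higher, at 3.92-fold, 3.30-fold and 3.64-fold, and the list median was -0.17. None was called lower, where 4.73% of all expressed genes were called higher and 8.36% lower. PDGFRB had 15.9 CPM, 17.9 CPM and 18.7 CPM in Enshi black, Large White and Chinese wild boar, and desmin (DES) had 14.2 CPM, 20.9 CPM and 37.9 CPM, neither with the order of the collagens. The 7 myofibroblast and smooth muscle markers summed to 400 CPM, 510 CPM and 394 CPM (median -0.16 in Enshi black against Large White), and 3 portal fibroblast markers, which include PDGFRA, to 24.8 CPM, 16.99 CPM and 25.5 CPM. The single mesothelial marker with an ID stayed at or below 0.204 CPM. The part of any cell type in the collagen values was not tested.

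Endothelial markers summed to 467 CPM, 425 CPM and 324 CPM over 8 genes in Enshi black, Large White and Chinese wild boar. Sinusoidal endothelial markers summed to 291 CPM, 597 CPM and 268 CPM over 4 genes, with CLEC1B at 0 in Chinese wild boar, and Kupffer cell and macrophage markers to 893 CPM, 1056 CPM and 871 CPM over 8 genes. Of these 8, 4 were called lower in Enshi black than Large White (median log2 fold -1.20) and 1 in Chinese wild boar (median -1.0). The shares of all expressed genes called lower in these comparisons were 8.36% and 3.71%. Erythroid markers summed to 44.9 CPM, 105 CPM and 186 CPM over 3 genes. Both platelet markers with an ID had no count in any library.

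Gene span also moved with the Enshi black values. All expressed genes with a RefSeq span were split into 10 equal groups by span. The median Enshi black to Large White log2 fold was -0.13 for the shortest group, 0.17 for group 7 and 0.07 for the longest. The median Enshi black to Chinese wild boar log2 fold was -0.18 for the shortest group and 0.23 for the longest. Members were long, with a median span of 60092 bp against 32971 bp. Centring each fold on genes of the same span group gave a member median of 0.31 in place of 0.30 for Enshi black against Large White, 0.08 in place of 0.14 for Chinese wild boar set against Large White, and 0.18 in place of 0.32 for Enshi black against Chinese wild boar. Of 14 member calls between Enshi black and Large White, 12 were kept.

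The 30 members below the expression limit included 5 with no count in any library (COL2A1, COL10A1, FBLN7, MMP12 and MMP20). The other 25 had at most 15 counts in a library, among them COL15A1, COL17A1, COL28A1, FBN2, ITGA11, ITGB6, ITGB8, LAMC3 and ADAMTS19. None of them passed the 2-fold limit, although some intervals left out 1, such as that of COL15A1, which was 4.03-fold (1.07 to 22.5) lower in Enshi black than Large White on 3 against 11 counts. Of the 80 expressed members, 30 overlap another gene in the RefSeq annotation, among them COL14A1, COL5A3, COL8A1, LAMB3, LOX and SPARC, and reads of such overlaps could have been dropped or misassigned.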

How the data were processed

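The authors deposited 1 table of read counts per library, with whole-number counts per Ensembl gene ID. Per the submitters' processing notes, the build was Sscrofa10.2 and the tools included HTSeq 0.6.1, TopHat2 2.1.0 and edgeR 3.16.3. For the annotation release and strand setting, nothing is given in the sources used here. The deposited counts list 0 multiply aligned reads in each library. The 5 rows that name no gene were left out. They held 18.9% to 21.96% (no feature) and 1.89% to 2.49% (ambiguous) of the tallied reads.

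Symbols were matched by ID for 11804 of 25322 IDs. Role classes, gene lists and the rule for naming (called members, the most abundant of each role, called list genes) were chosen with earlier results of these data known. Spans, neighbours and overlaps came from RefSeq Sscrofa11.1, and no coordinates are given because the builds differ.

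Library sizes were multiplied by TMM factors (edgeR 4.0.16, R 4.3.3). The filter of 1 CPM in any library left 13224 genes. Folds carry 95% Clopper-Pearson intervals (scipy 1.17.1), which cover counting error only, since they hold no term for variation between animals or libraries. No molecular identifiers are described, so copies of a molecule could not be told from separate molecules. Medians of log2 folds used a prior count of 2. The rule for a call was tried on simulated counts with planted folds and counting noise only. That trial cannot show how the rule behaves under variation between animals. Alternatives were total counts, DESeq2 1.42.0 size factors, no filter or 10 CPM, a limit of 1.5, an assumed coefficient of variation of 0.4, span centring, a prior count of 0.5 and means. Some single-gene results are not reported here.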

Additional observations from a re-analysis of the deposited data

How the results depend on the processing

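Counts of called members below are given as higher, then lower. They moved most with the limit itself and with assumed variation between animals. With a limit of 1.5 in place of 2 there were 21 and 8 for Enshi black against Large White (9 and 5 reported), 8 and 9 (3 and 6 reported) between Chinese wild boar and Large White, and 12 and 5 (7 and 4 reported) between Enshi black and Chinese wild boar. With an assumed coefficient of variation of 0.4 they were 1 and 0, 0 and 0, and 0 and 0. A 10 CPM filter, which left 52 members, gave 2 lower for Enshi black and 1 lower for Chinese wild boar against Large White. Total counts gave 3 lower for Enshi black against Large White, without LAMA3 and MMP9, and added ADAMTS2, COL6A2 and COL6A3 to the higher ones. Under total counts the median of all expressed genes rose to 0.10 for Enshi black against either other library. Without an expression filter (105 members) the member medians were 0.042 for Enshi black against Large White and 0.10 against Chinese wild boar. The mean of Chinese wild boar against Large White was 0.0101, and span centring gave 0.18 for Enshi black against Chinese wild boar. No called fold turned its direction under total counts, DESeq2 size factors, the lower limit, the assumed variation or span centring. The counts of members highest or lowest in each library stayed within 1.5 times under DESeq2 size factors and total counts, which were alternatives chosen after seeing the data. No paired analysis was possible because each breed has 1 library.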
